A study of Homo sapiens with 24 samples.

Results

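The genes described here encode the drug-metabolizing enzymes of phase I and phase II: cytochrome P450s of families 1 to 4 (CYP), epoxide hydrolases (EPHX), UDP-glucuronosyltransferases of families 1 and 2 (UGT), glutathione S-transferases (GST) and cytosolic sulfotransferases of families 1 and 2 (SULT). They were chosen by symbol among the genes that GENCODE 29 annotates as protein coding. The rule itself uses no measured value, but it was set with earlier results of these data known. The rule found 87 genes among the 58024 Ensembl gene IDs of the table: 36 CYP, 4 EPHX, 19 UGT, 17 GST and 11 SULT genes.

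Lipophilic drugs, hormones and dietary chemicals are cleared from the liver in steps. P450s of the endoplasmic reticulum insert oxygen into a substrate with electrons from P450 reductase, and epoxide hydrolases open the reactive epoxides that can result. Phase II enzymes then attach a polar group, which is glucuronic acid from UDP-glucuronic acid for UGTs, sulfate from the donor PAPS for SULTs and glutathione for GSTs, and transporters export the conjugate. Many of these genes are switched on by the receptors AHR, PXR (NR1I2) and CAR (NR1I3) or by NRF2 (NFE2L2), and hepatoma lines are known to hold less of many of them than primary hepatocytes.

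RNA came from Huh7 cells, an established human hepatoma line, either lacking ABHD6 (KO), a hydrolase of monoacylglycerols, or wild type (WT). Each genotype was harvested after 24 h and 48 h in 800 µM palmitic acid, a saturated fatty acid, and before treatment in basal medium (0 h), with 4 libraries in each of the 6 groups. A group kept for 24 h or 48 h in basal medium is not among the 6, and effects of the acid and of time in culture therefore cannot be told apart. Neither the number of KO clones nor the origin of the 4 libraries (separate cultures or not) is stated, and the p-values thus reflect variation among libraries that may be technical. The libraries of a group are numbered 0 to 3, as in their titles. Values are FPKM, fragments scaled to transcript length in kilobases and to mapped library size, as the authors computed them.

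The values rest on few fragments and on an unstated strand setting. Step sizes of the low values put 398496 to 497336 fragments behind a library at 0 h and 565284 to 707185 behind one at 24 h or 48 h, so that a single (1) fragment from a transcript of 2 kb is worth 0.707 to 1.25 FPKM. ABHD6 itself was above 0 in 4 of 12 KO and 3 of 12 WT libraries, at no more than 0.771 FPKM in KO and 1.16 FPKM in WT libraries, which is too low to check the genotype labels. The library kit keeps the strand of the RNA, but the sources used here do not say how strand was treated when reads were counted. The antisense class of the annotation took 44.0% to 48.8% of all FPKM at 24 h and 48 h, against 56.0% to 58.1% at 0 h, and mitochondrial genes 10.4% to 14.9%, against 3.20% to 4.43%. The part of these shifts and of depth in the changes with time given below was not tested. In 62.6% of 1749 antisense and protein-coding pairs with overlapping exons, the mean of the antisense member was the higher one. Had reads been counted on the opposite strand, a gene's value would hold only its stray reads, so the levels below are those of the deposited table and may not be the full level of the gene. The liver identity of the cells was visible, since all 8 hepatocyte markers were above 0 and summed to 697 to 1557 FPKM per library. Markers of other cell types were mixed. KRT7 (biliary), DCN (stellate) and CDH5, KDR and VWF (endothelial) were listed at 0 in all 24 libraries, and PTPRC (immune) averaged 0.0797 FPKM. A mean of at least 0.5 FPKM was reached by 3 of 4 biliary, 2 of 5 stellate, 1 of 4 endothelial and 3 of 4 immune markers. Biliary markers summed to 12.2 to 52.6 FPKM per library and immune markers to 79.9 to 338 FPKM. The highest were LYZ (immune) at a mean of 183 FPKM, SOX9 (biliary) at 18.6 FPKM and PECAM1 (endothelial) at 5.27 FPKM.

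The promoters of 4 members are shown, 2 that were called and 2 that serve as landmarks, and UGT2B4, which was also called, is named only. SULT1C4 and SULT1C2 are neighbours on chromosome 2 that were both called with palmitic acid, GSTP1 was the most abundant member, and CYP1A1 is the textbook target of AHR. The 250 bases before each RefSeq start (GRCh38.p14) are chr2:108377704-108377953 on the plus strand for SULT1C4, chr2:108288645-108288894 plus for SULT1C2, chr11:67583562-67583811 plus for GSTP1 and chr15:74725529-74725778 minus for CYP1A1. Each of these RefSeq starts lies inside the gene span that GENCODE gives, so part of each window, and all of that of SULT1C2, is within the annotated gene. Capitals mark matches to the motifs named below.
SULT1C4: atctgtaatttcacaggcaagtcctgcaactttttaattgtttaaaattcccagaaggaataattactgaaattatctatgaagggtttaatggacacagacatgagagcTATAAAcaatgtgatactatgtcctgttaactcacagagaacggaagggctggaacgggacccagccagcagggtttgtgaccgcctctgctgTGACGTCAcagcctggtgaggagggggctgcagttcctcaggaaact
SULT1C2: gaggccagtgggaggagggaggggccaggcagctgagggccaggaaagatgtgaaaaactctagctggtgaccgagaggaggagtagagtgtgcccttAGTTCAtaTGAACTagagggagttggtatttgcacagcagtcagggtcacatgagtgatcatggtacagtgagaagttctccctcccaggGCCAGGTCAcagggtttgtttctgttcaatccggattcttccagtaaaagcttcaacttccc
GSTP1: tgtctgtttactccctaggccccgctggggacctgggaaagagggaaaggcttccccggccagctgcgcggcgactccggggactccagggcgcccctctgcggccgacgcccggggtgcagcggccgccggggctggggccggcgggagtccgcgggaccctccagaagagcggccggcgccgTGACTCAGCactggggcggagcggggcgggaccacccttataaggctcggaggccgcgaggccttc
CYP1A1: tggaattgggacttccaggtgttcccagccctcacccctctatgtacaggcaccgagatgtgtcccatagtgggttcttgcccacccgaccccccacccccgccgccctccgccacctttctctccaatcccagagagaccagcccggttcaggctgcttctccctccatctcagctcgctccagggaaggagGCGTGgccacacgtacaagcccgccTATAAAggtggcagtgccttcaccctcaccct

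Positions are counted from the start, with -1 the last base shown. The SULT1C4 window holds the letters of a TATA box (TATAAA) at -140 and those of a palindromic cAMP response element (TGACGTCA) at -47. The SULT1C2 window holds a nuclear receptor binding motif (AGTTCA) at -152 and its reverse complement a few bases on, and a match to the antioxidant response element core TGACNNNGC on the minus strand at -62. The GSTP1 window has at -66 a stretch that fits both that core and the AP-1 site TGACTCA, which overlap there. The CYP1A1 window holds the xenobiotic response element core GCGTG, to which AHR with its partner ARNT binds, at -57 and a TATA box at -32. Of the 71 members with a RefSeq promoter 35.2% held TATAAA, against 11.1% of all 27305 promoters of that length, searched on both strands. GCGTG was found in 22.5% of member promoters and 31.9% of all, TGACNNNGC in 18.3% and 11.03%, AGTTCA in 16.9% and 8.91%, TGACTCA in 1.41% and 4.16%, and TGACGTCA in 1.41% and 1.77%. A match describes the letters only, and binding was not measured.

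Most members were low or at 0. Of the 87 genes 60 were above 0 in at least 1 library, 27 were listed at 0 in all 24, and 6 were above 0 in all 24: CYP2R1, UGT2B4, SULT1C2, GSTP1, GSTO1 and GSTK1. A mean of at least 0.5 FPKM, the floor for testing, was reached by 34 members (39.1%), against 61.1% of all 19708 protein-coding genes. Another 26 members were above 0 but under that floor. Those at 0 throughout included CYP2E1, CYP2C8, CYP2B6 and CYP4A11, P450s that are known from adult liver, and UGT2B15 and UGT2B17. CYP3A4, the main drug-oxidizing P450 of adult liver, was above 0 in 6 libraries and averaged 0.232 FPKM. A gene at 0 was not detected at this depth and under a strand setting that is not stated, which does not show that it is absent. Between 26 and 37 members were above 0 in a library at 24 h or 48 h, against 22 to 28 at 0 h, and the libraries at 0 h were also the shallower ones. The part of depth in that difference was not tested.

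**Figure D1:**
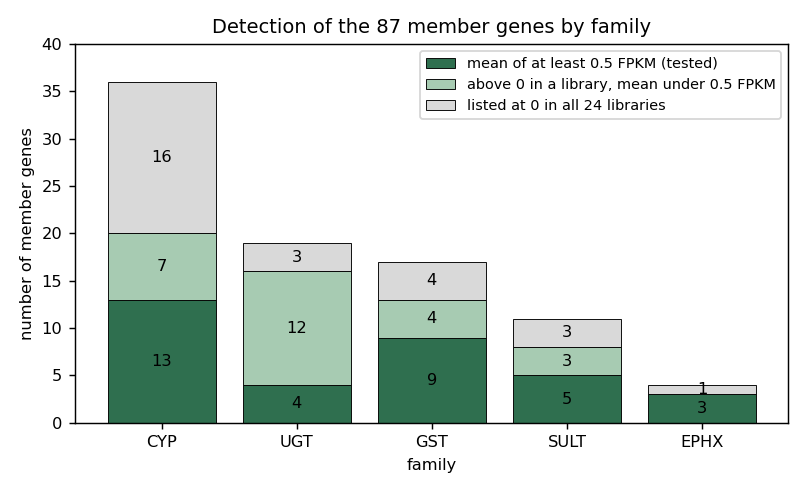
Number of member genes (vertical axis) in each enzyme family (horizontal axis), split into those tested, those above 0 with a mean under 0.5 FPKM and those listed at 0 in all 24 libraries. The CYP family has 13 tested genes and 16 at 0, while 12 of the 19 UGT genes lie between 0 and the floor.

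The level was carried by a few genes. The 87 members summed to a mean of 197 FPKM per library, of which GSTs made up 51.9%, CYPs 23.6%, SULTs 10.4%, UGTs 7.59% and EPHX genes 6.60%. Only 8 members averaged at least 5 FPKM and 19 at least 2 FPKM. Sequence shared with other genes limits several of them, since 14 of the 34 tested members share at least 10% of their 31-base windows with transcripts of another gene, all 4 UGTs among them. Of the tested members 7 overlap an exon on the opposite strand.

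**Figure D2:**
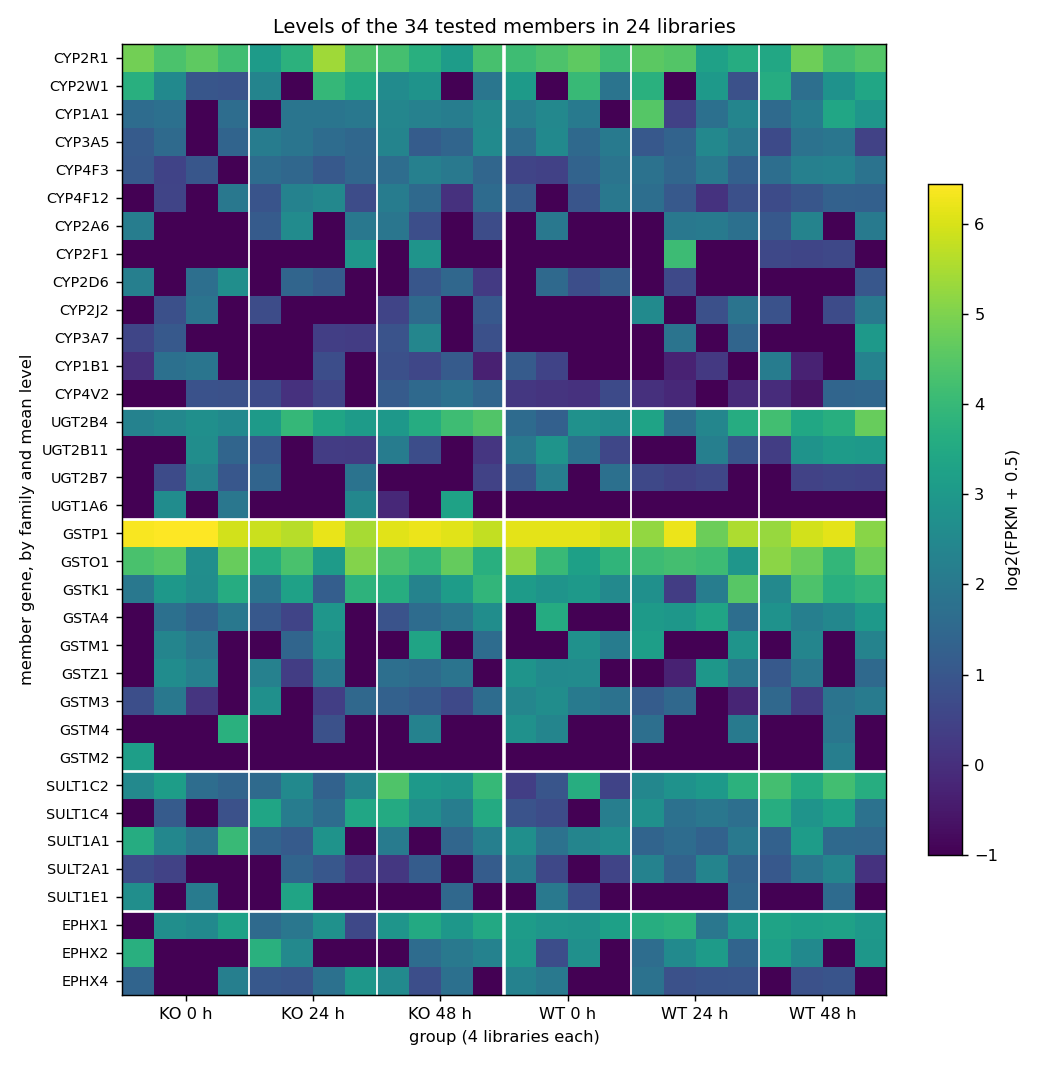
Level of each of the 34 tested members (rows, by family and mean) in each of the 24 libraries (columns, 4 per group), as log2(FPKM + 0.5) on the colour scale; the darkest colour is a value of 0. GSTP1 is the highest row throughout, and all but 6 rows include at least 1 library at 0.

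After palmitic acid, 3 of the 34 tested members were called in at least 1 comparison with 0 h, and all 3 rose: UGT2B4, SULT1C2 and SULT1C4. SULT1C4 rose in KO cells at 24 h and at 48 h. UGT2B4 and SULT1C2 rose in WT cells at 48 h. Each comparison with 0 h called 0% to 5.88% of the members, against 4.06% to 9.82% of all tested genes. The calls in WT cells at 48 h and in KO cells at 24 h were lost when only the groups compared were fitted. Calls come from limma on log2(FPKM + 0.5) and need a p under 0.05 after Benjamini-Hochberg adjustment over the 17252 genes tested. Fold changes are on that scale, which understates the change of low genes. No P450, epoxide hydrolase or GST was called in any of the 11 comparisons, and KO and WT cells did not differ by a called member at any time. In these bulk libraries, more RNA per cell and more cells holding the RNA cannot be told apart.

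SULT1C4 (ENSG00000198075.9, chr2:108377911-108388057, plus strand, GRCh38) encodes a cytosolic sulfotransferase of small phenols that is known mainly from fetal tissues. In KO libraries 0 to 3 it measured 0, 1.71, 0 and 1.28 FPKM at 0 h, then 9.87, 3.84, 2.60 and 10.2 FPKM at 24 h, then 11.1, 5.85, 3.94 and 11.3 FPKM at 48 h. Every treated KO library lay above every KO library at 0 h, and libraries 0 and 3 were the highest at both later times. In WT libraries it measured 1.36, 1.15, 0 and 3.998 FPKM at 0 h, then 6.18, 2.92, 3.38 and 2.80 FPKM at 24 h, then 12.01, 6.71, 8.91 and 2.96 FPKM at 48 h. WT libraries overlapped between times, because library 3 held the highest value at 0 h and the lowest at 48 h. The log2 fold change in KO cells was 2.64 ± 0.67 (SE) at 24 h, with a limma adjusted p of 0.0183, and 2.98 ± 0.67 at 48 h, with an adjusted p of 0.00412. In WT cells it was 1.35 ± 0.67 at 24 h (limma adjusted p = 0.331) and 2.18 ± 0.67 at 48 h (adjusted p = 0.0501), which were not called. Without WT 0 h library 3 the WT change at 48 h was 2.67 ± 0.68 (limma adjusted p = 0.0184), and without WT 48 h library 3 it was 2.54 ± 0.70 (adjusted p = 0.0383). Over the 8 WT libraries left out in turn, the limma adjusted p at 48 h ran from 0.0184 to 0.171. The KO call at 24 h was lost when KO 0 h library 0 or 2, or KO 24 h library 0 or 3, was left out (limma adjusted p between 0.0629 and 0.0699), and when only the 8 libraries compared were fitted (adjusted p = 0.128). The size of the 48 h fold depends on the pseudocount, with 4.23 for 0.1 and 2.42 for 1.

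SULT1C2 (ENSG00000198203.9, chr2:108288639-108309915, plus strand, GRCh38) is another sulfotransferase of the same subfamily and lies 68.0 kb before SULT1C4. In WT libraries 0 to 3 it measured 0.806, 1.46, 12.025 and 0.907 FPKM at 0 h, then 4.97, 6.49, 7.63 and 13.2 FPKM at 24 h, then 17.9, 11.2, 17.8 and 12.03 FPKM at 48 h. WT 0 h library 2 stood apart from the other 3 and within the range of the 48 h libraries. In KO libraries it measured 5.23, 8.35, 2.66 and 2.21 FPKM at 0 h, then 2.498, 5.28, 2.02 and 4.67 FPKM at 24 h, then 20.6, 7.44, 6.67 and 15.4 FPKM at 48 h. All KO libraries at 48 h were above all KO libraries at 24 h, which held for 4 of the 34 tested members and 2.43% of all tested genes. The KO libraries at 48 h were not all above those at 0 h. The WT change at 48 h was 2.53 ± 0.60 on the log2 scale (limma adjusted p = 0.0101), against 1.64 ± 0.60 at 24 h (limma adjusted p = 0.146). Without WT 0 h library 2 the WT change at 24 h was 2.40 ± 0.49 (limma adjusted p = 0.0064). Over the 8 libraries left out in turn, the limma adjusted p at 24 h ran from 0.0064 to 0.333. The KO change was -0.24 ± 0.60 at 24 h (limma adjusted p = 0.904) and 1.36 ± 0.60 at 48 h (limma adjusted p = 0.174). Transcripts of this gene differ in length, so that the WT mean at 48 h equals 58.5 fragments if all came from its longest transcript and 5.30 if from its shortest coding one, against 11.04 and 0.999 at 0 h.

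UGT2B4 (ENSG00000156096.12, chr4:69480165-69526014, minus strand, GRCh38) encodes a liver glucuronosyltransferase that acts on bile acids and catechol estrogens. In WT libraries 0 to 3 it measured 2.56, 1.94, 6.36 and 5.64 FPKM at 0 h, then 9.41, 2.71, 4.88 and 11.7 FPKM at 24 h, then 17.6, 10.3, 12.3 and 25.9 FPKM at 48 h. In KO libraries it measured 4.38, 5.03, 6.02 and 5.32 FPKM at 0 h, then 7.79, 15.04, 9.81 and 7.91 FPKM at 24 h, then 7.36, 11.8, 16.9 and 20.9 FPKM at 48 h. In either genotype the lowest 48 h library lay above the highest 0 h library. The log2 change at 48 h was 1.93 ± 0.45 in WT cells (limma adjusted p = 0.00911), a call, and 1.28 ± 0.45 in KO cells (limma adjusted p = 0.0767), not a call. With each of the 8 KO libraries left out in turn, the limma adjusted p of the KO change ran from 0.042 to 0.213. It was called only without KO 48 h library 0 (1.55 ± 0.47). At 24 h the log2 change was 0.68 ± 0.45 in WT cells (limma adjusted p = 0.499) and 0.86 ± 0.45 in KO cells (limma adjusted p = 0.333). The WT means correspond to 22.3 fragments per library at 48 h and 3.93 at 0 h on its longest transcript. Of its 31-base windows 13.3% also occur in transcripts of other genes, and 7.46% in those of other members, so that counting may have split reads between them.

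**Figure D3:**
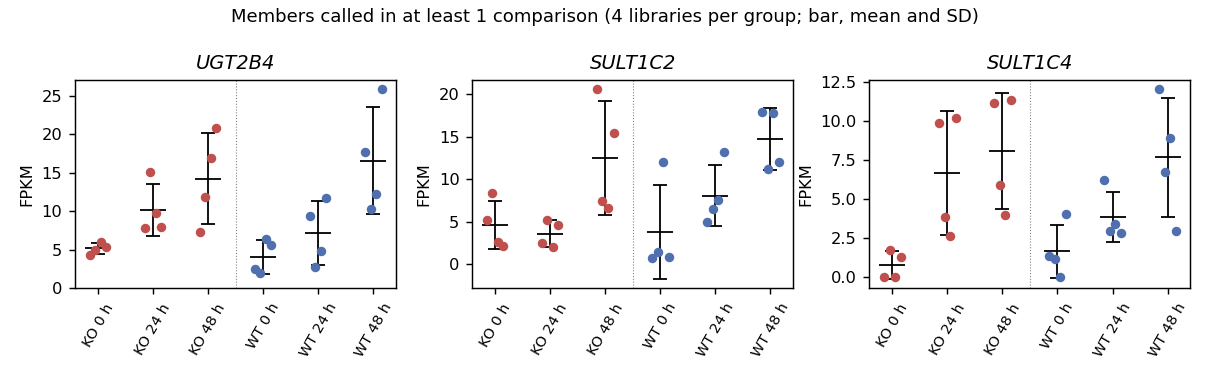
FPKM (vertical axes) of the 3 called members in each library (points), by group, with the mean and SD of 4 libraries as bars; KO groups are left of WT groups. UGT2B4 is at 7.36 to 20.9 in KO and 10.3 to 25.9 in WT libraries at 48 h, and the single high point of SULT1C2 at WT 0 h is library 2.

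The counts were set against all genes. In WT cells at 48 h against 0 h, 2 of 34 members were called (5.88%), both higher, where 6.79% of all tested genes were called in either direction and 2.57% were higher. In KO cells, 1 of 34 was called (2.94%) at 24 h and again at 48 h, in each case higher. Of all genes 5.64% were called in KO cells at 24 h, 2.13% higher, and 9.82% at 48 h, 3.4% higher. In WT cells at 24 h no member was called in limma, against 4.06% of all genes, and 5 had an unadjusted p under 0.05 (14.7% of members, 15.8% of all genes). With rises and falls counted together, the members' shares lie below those of all genes. For rises alone, they lie above in WT cells at 48 h (5.88% against 2.57%) and in KO cells at 24 h (2.94% against 2.13%). In KO cells at 48 h the members' share of rises lies below (2.94% against 3.4%). These shares rest on 1 or 2 members each. The median log2 change of the members at 48 h was 0.51 in KO and 0.53 in WT cells, with a median of 0 over all tested genes in each. At 24 h it was -0.10 in KO and 0.00 in WT cells, again beside 0 over all genes. Over the 9213 genes free of opposite-strand exon overlap, the median was 0.16 in KO and 0.12 in WT cells at 48 h. At 24 h it was 0.07 in each genotype. Most tested members are free of such overlap, so 0 is not the only background for them. When only the 8 libraries compared were fitted, the SULT1C4 call at 48 h in KO cells was kept (limma adjusted p = 0.0436), while UGT2B4 and SULT1C2 in WT cells were not called (adjusted p of 0.0727 and 0.135).

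At 48 h against 0 h in KO cells, 5 members had all 4 treated libraries above all 4 libraries at 0 h (CYP1A1, CYP4F3, CYP4V2, SULT1C4 and UGT2B4), as did 6.25% of all tested genes. In WT cells at 48 h this held for UGT2B4 alone among the members, and for 5.01% of all genes. At 24 h SULT1C4 and UGT2B4 were apart in this way in KO cells (4.48% of all genes). GSTM3 and CYP4V2 were lower without overlap in WT cells at 24 h (5.55% of all genes). Several of these genes were named for this pattern after their values were seen, and of them SULT1C4 and UGT2B4 alone were called in any comparison.

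**Figure D4:**
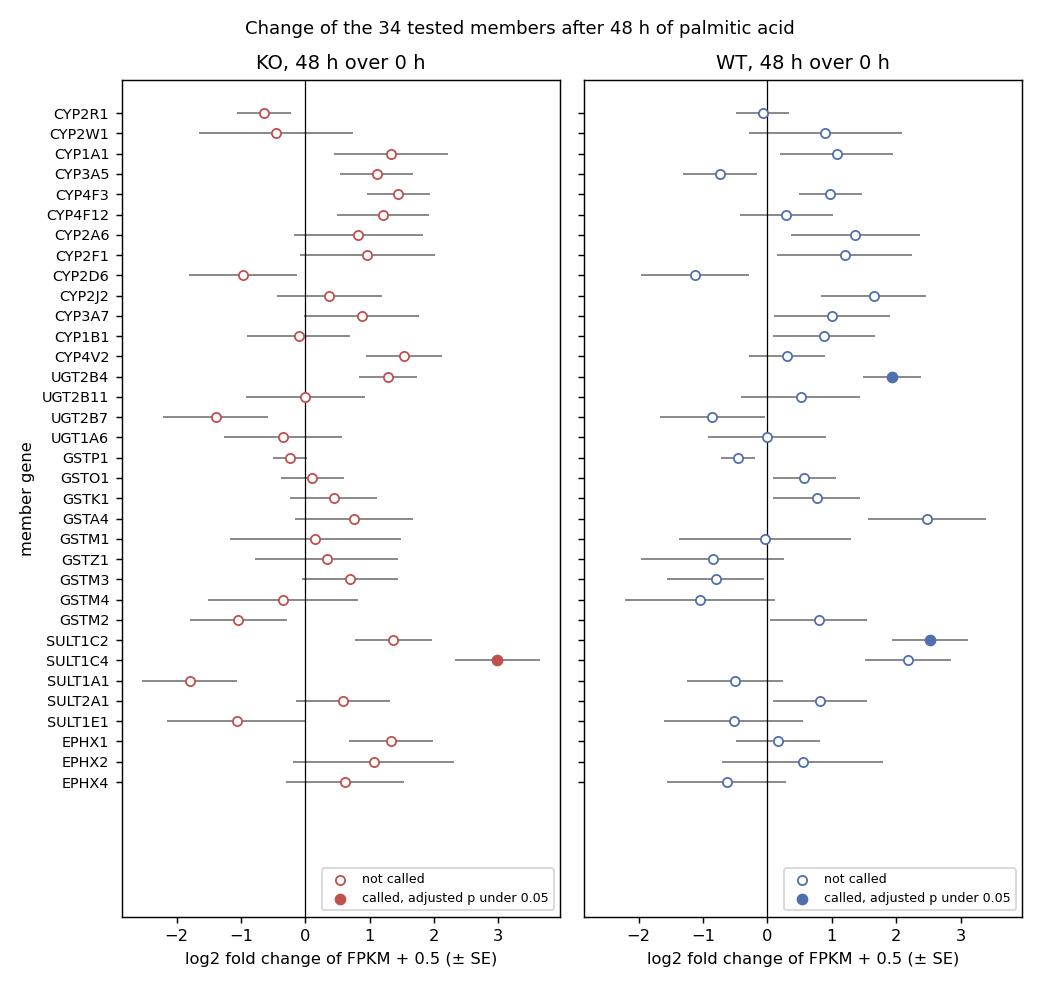
Log2 fold change of FPKM + 0.5 (horizontal axes, with SE bars) at 48 h over 0 h for the 34 tested members (rows) in KO (left) and WT cells (right); filled points are called at an adjusted p under 0.05. SULT1C4 is the filled point in KO cells at 2.98, and UGT2B4 and SULT1C2 are filled in WT cells at 1.93 and 2.53.

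Among phase I enzymes, 13 of 36 P450s were tested and none was called. CYP2R1 (ENSG00000186104.10, chr11:14877440-14892252), a vitamin D hydroxylase, was the most abundant P450 and was present in every library. It averaged 22.2 ± 4.77 FPKM at 0 h, 20.6 ± 14.4 FPKM at 24 h and 14.6 ± 5.20 FPKM at 48 h in KO cells, and 19.5 ± 3.24, 16.3 ± 7.02 and 19.3 ± 6.97 FPKM at these times in WT cells (SD, n = 4 each). The KO mean at 24 h includes library 2 at 40.8 FPKM, and groups overlapped at all times. Its change at 48 h was -0.64 ± 0.41 in KO cells (limma adjusted p = 0.401) and -0.08 ± 0.41 in WT cells (limma adjusted p = 0.992). CYP2W1 (chr7:983199-989640), a P450 described mainly from fetal gut and tumours, averaged 6.07 FPKM but ranged from 0 to 15.6 FPKM within single groups.

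CYP1A1 (ENSG00000140465.13, chr15:74719542-74725610, minus strand) oxidizes polycyclic aromatic hydrocarbons and is the readout most used for AHR activity. In KO libraries 0 to 3 it measured 2.58, 2.88, 0 and 2.64 FPKM at 0 h, then 0, 3.23, 3.21 and 3.42 FPKM at 24 h, then 4.85, 4.29, 3.96 and 5.19 FPKM at 48 h. The KO libraries at 48 h were the 4 highest KO values and lay close together. In WT libraries it measured 4.06, 5.10, 3.61 and 0 FPKM at 0 h, then 22.0, 0.862, 2.85 and 4.74 FPKM at 24 h, then 2.48, 3.83, 10.1 and 7.07 FPKM at 48 h. WT groups overlapped, with WT 24 h library 0 far above all other libraries. The change at 48 h was 1.33 ± 0.88 in KO cells (limma adjusted p = 0.417) and 1.07 ± 0.88 in WT cells (limma adjusted p = 0.573).

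The other 10 tested P450s averaged between 0.99 FPKM (CYP4V2) and 2.79 FPKM (CYP3A5) and were at 0 in at least 1 library each. CYP4F3, which hydroxylates leukotrienes and long-chain fatty acids at their ends, came closest to a call. It averaged 3.16 ± 0.877 FPKM in KO cells at 48 h, against 1.00 ± 0.732 FPKM at 0 h, a log2 change of 1.45 ± 0.49 (limma adjusted p = 0.0654), which became 1.67 ± 0.50 (adjusted p = 0.0403) without KO 0 h library 0. Over the 8 libraries left out in turn, the limma adjusted p ran from 0.0403 to 0.198. In WT cells CYP4F3 averaged 3.65 ± 0.854 FPKM at 48 h and 1.76 ± 1.07 FPKM at 0 h, a log2 change of 0.97 ± 0.49 (limma adjusted p = 0.291). It shares 20.8% of its 31-base windows with other genes. CYP2J2, an epoxygenase of arachidonic acid, averaged 2.45 ± 2.36 FPKM in WT cells at 24 h, against a WT group at 0 h in which every library is listed at 0, for which no fold is given. CYP3A5, CYP4F3, CYP4V2 and CYP2J2 are named because of their values.

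EPHX1 (ENSG00000143819.12, chr1:225810092-225845563), the microsomal epoxide hydrolase that detoxifies epoxides made by P450s, averaged 5.09 ± 3.795 FPKM at 0 h, 3.31 ± 2.24 FPKM at 24 h and 8.91 ± 2.18 FPKM at 48 h in KO cells. In WT cells it averaged 7.70 ± 1.03, 8.996 ± 4.43 and 8.69 ± 0.880 FPKM at these times (SD, n = 4 each). All KO libraries at 48 h were above all KO libraries at 24 h, which held for 2.43% of all genes, and the log2 change between them was 1.47 ± 0.65 (limma adjusted p = 0.483). EPHX2, the soluble enzyme that hydrolyses epoxides of fatty acids, was above 0 in 6 of 12 KO and 10 of 12 WT libraries. KO 0 h library 0 held 12.4 FPKM of EPHX2 while the other 3 held none. EPHX4 averaged 1.95 FPKM, and EPHX3 was listed at 0 throughout. No epoxide hydrolase was called.

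Among phase II enzymes the GSTs, which conjugate glutathione to electrophiles, had 9 of 17 genes tested and no call. GSTP1 (ENSG00000084207.15, chr11:67583595-67586656, plus strand), the pi class enzyme that is known to be low in normal hepatocytes and high in many tumours, averaged 60.9 FPKM. In KO libraries 0 to 3 it measured 81.7, 86.5, 86.5 and 60.4 FPKM at 0 h, then 57.0, 49.9, 72.9 and 43.6 FPKM at 24 h, then 68.9, 74.2, 69.0 and 53.7 FPKM at 48 h. In WT libraries it measured 69.4, 70.1, 69.6 and 60.8 FPKM at 0 h, then 36.9, 73.9, 26.6 and 45.5 FPKM at 24 h, then 39.0, 60.6, 70.6 and 34.4 FPKM at 48 h. WT libraries at 0 h lay within a narrow range and treated WT libraries were spread widely, with WT 24 h library 1 above all 4 libraries at 0 h. The log2 change at 24 h was -0.50 ± 0.26 in KO cells (limma adjusted p = 0.332) and -0.65 ± 0.26 in WT cells (limma adjusted p = 0.203). Without WT 24 h library 1 the WT change at 24 h was -0.91 ± 0.25 (limma adjusted p = 0.0418). Over the 8 libraries left out in turn, the limma adjusted p ran from 0.0418 to 0.493.

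GSTO1, the omega class enzyme that also reduces dehydroascorbate, averaged 18.04 ± 11.1 FPKM at 24 h and 17.9 ± 5.57 FPKM at 48 h in KO cells, against 18.1 ± 8.50 FPKM at 0 h. In WT cells GSTO1 averaged 14.6 ± 5.12 FPKM at 24 h and 25.8 ± 8.28 FPKM at 48 h, against 18.8 ± 12.04 FPKM at 0 h. GSTK1, the kappa class enzyme of mitochondria and peroxisomes, averaged 8.66 FPKM. GSTA4, which conjugates the lipid peroxidation product hydroxynonenal, stood out for a fold that 1 library decided. In WT cells it averaged 6.82 ± 2.91 FPKM at 24 h and 5.79 ± 1.57 FPKM at 48 h, against 2.86 ± 5.73 FPKM at 0 h, where library 1 held 11.5 FPKM and the other 3 held none. The log2 change was 2.61 ± 0.92 at 24 h (limma adjusted p = 0.128) and 2.47 ± 0.92 at 48 h (limma adjusted p = 0.117). Without that library it was 3.76 ± 0.77 (limma adjusted p = 0.00787) at 24 h and 3.62 ± 0.77 (limma adjusted p = 0.00671) at 48 h, against a group then listed at 0, so the size depends on the pseudocount. Over the 8 libraries left out in turn, the limma adjusted p ran from 0.00787 to 0.291 at 24 h and from 0.00671 to 0.274 at 48 h. GSTA4 was chosen after its values were seen.

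**Figure D5:**
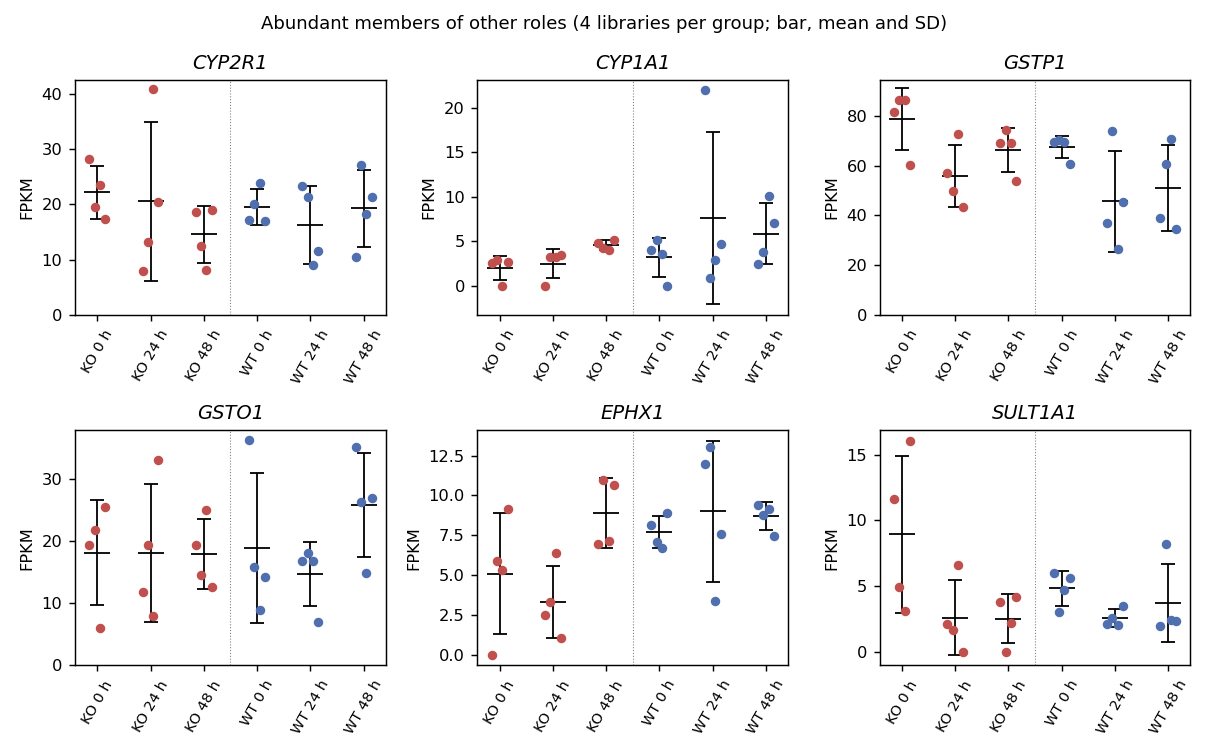
FPKM (vertical axes) of 6 further members in each library (points), by group, with the mean and SD of 4 libraries as bars; KO groups are left of WT groups. GSTP1 lies between 26.6 and 86.5 in all libraries, CYP1A1 has 1 WT library at 22.0 after 24 h, and SULT1A1 reaches 11.6 and 16.1 in KO libraries at 0 h alone.

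GSTM1 and GSTM3, mu class GSTs named here for this reason, overlap antisense genes whose FPKM was higher than theirs. AC000032.1, which shares 402 exonic bases with GSTM1, averaged 62.7 FPKM and GSTM1 2.64 FPKM, and 61.1% of the windows of GSTM1 occur in other genes. AL158847.1, which shares 202 bases with GSTM3, averaged 23.6 FPKM and GSTM3 2.24 FPKM. In KO cells AC000032.1 averaged 34.6 FPKM at 24 h and 24.9 FPKM at 48 h, against 99.3 FPKM at 0 h, falls that were called (log2 change of -1.53 ± 0.43 and -1.98 ± 0.43, limma adjusted p of 0.0352 and 0.00317). In WT cells it averaged 56.5 FPKM at 24 h and 53.7 FPKM at 48 h, against 107 FPKM at 0 h (limma adjusted p of 0.225 and 0.14). GSTM1 itself was above 0 in 6 KO and 6 WT libraries and was not called. Whether the antisense values hold reads of the GSTs was not tested.

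Of the 11 SULT genes 5 were tested. SULT1A1 (ENSG00000196502.11, chr16:28605196-28623625), the main phenol sulfotransferase of adult liver, averaged 2.62 ± 2.82 FPKM at 24 h and 2.54 ± 1.88 FPKM at 48 h in KO cells, against 8.93 ± 6.00 FPKM at 0 h, where libraries 0 and 3 held 11.6 and 16.1 FPKM. In WT cells it averaged 2.57 ± 0.679 FPKM at 24 h and 3.74 ± 2.99 FPKM at 48 h, against 4.83 ± 1.32 FPKM at 0 h. The KO changes of -1.89 ± 0.74 at 24 h and -1.80 ± 0.74 at 48 h had limma adjusted p of 0.157 and 0.145, and 23.1% of its windows occur in other genes. SULT2A1, which sulfates bile acids and DHEA, averaged 1.65 FPKM, and SULT1E1, an estrogen sulfotransferase, 1.30 FPKM. The summed SULT level was 24.7 ± 11.2 FPKM at 48 h and 17.8 ± 6.43 FPKM at 0 h in KO cells, and 29.7 ± 8.48 and 14.8 ± 3.91 FPKM in WT cells.

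Of the 19 UGTs 4 were tested, and UGT2B4 held most of the signal. UGT2B11 averaged 1.42 ± 1.71 FPKM at 48 h and 1.97 ± 2.70 FPKM at 0 h in KO cells, and 5.71 ± 3.34 and 3.53 ± 2.41 FPKM in WT cells, with 56.2% of its windows in other genes. AC111000.4, antisense to UGT2B11, fell at 24 h in KO cells (log2 change of -2.24 ± 0.42, limma adjusted p = 0.00146) and in WT cells (-1.94 ± 0.42, limma adjusted p = 0.00691). At 48 h its change was -0.67 ± 0.42 in KO cells and -0.69 ± 0.42 in WT cells, and neither was called (limma adjusted p of 0.374 and 0.393). UGT2B11 itself averaged 0.749 ± 0.625 FPKM in KO and 1.38 ± 1.95 FPKM in WT cells at 24 h. UGT2B7, the enzyme that glucuronidates morphine, averaged 1.14 FPKM and was at 0 in 9 of 24 libraries. UGT1A6, whose shared exons are common to all UGT1A genes, was above 0 in 5 of 12 KO and 0 of 12 WT libraries, for which no fold is given. Those 5 KO libraries held 5.61 and 3.36 FPKM at 0 h, 4.98 FPKM at 24 h, and 0.413 and 9.35 FPKM at 48 h. UGT1A6 was chosen after its values were seen, and it was not called (limma adjusted p of 0.744 at 0 h and 0.91 at 48 h). Its mean passed the floor of 0.5 FPKM only through the KO libraries that were then compared with WT, so these tests do not stand apart from that filter. The summed UGT level was 19.1 ± 6.77 FPKM at 48 h and 11.4 ± 5.21 FPKM at 0 h in KO cells, and 23.6 ± 8.28 and 11.6 ± 2.96 FPKM in WT cells. At 24 h it was 13.8 ± 2.46 FPKM in KO and 10.2 ± 4.60 FPKM in WT cells. These sums include UGT2B4, which averaged 16.5 FPKM at 48 h and 4.12 FPKM at 0 h in WT cells, and do not show a rise of the other UGTs.

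Between genotypes, no member was called in limma at any time. Of all genes 0.0985% were called at 0 h, 0.0116% at 24 h and 0.0638% at 48 h. Members with an unadjusted p under 0.05 were GSTM3 at 0 h (2.94% of members, against 6.92% of all genes), EPHX1 at 24 h (2.94%, against 5.17%) and none at 48 h (0%, against 6.56%). In limma the smallest adjusted p over the members was 0.641, at 0 h. No member had KO and WT libraries without overlap, against 2.72% of all genes at 0 h, 2.92% at 24 h and 4.11% at 48 h. At 48 h the KO minus WT difference was 0.10 for SULT1C4 (95% interval -1.28 to 1.48), -0.22 for UGT2B4 (-1.15 to 0.71) and -0.34 for SULT1C2 (-1.58 to 0.89) on the log2 scale. The interval of SULT1C4 includes a difference of 1 log2 unit in either direction. Those of UGT2B4 and SULT1C2 include a KO level lower by 1 log2 unit, but not one higher by as much.

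The response of KO cells also did not differ from that of WT cells by a called member. The interaction, KO change minus WT change, was called for 0% of all genes at 24 h and for 0.0522% at 48 h. At 24 h 4 members had an unadjusted p under 0.05 (CYP2J2, GSTA4, GSTM3 and SULT1C2), which is 11.8% of members against 5.51% of all genes. At 48 h 1 had (CYP3A5), which is 2.94% of members against 6.60% of all genes. For SULT1C2 the interaction was -1.88 ± 0.84 at 24 h (limma adjusted p = 0.901) and -1.16 ± 0.84 at 48 h (limma adjusted p = 0.844). For SULT1C4 it was 0.80 ± 0.94 at 48 h (limma adjusted p = 0.911) and for UGT2B4 -0.65 ± 0.64 (limma adjusted p = 0.888). The calls of SULT1C4 in KO cells alone, and of UGT2B4 and SULT1C2 in WT cells alone, are therefore not shown to differ between the genotypes. The 24 h and 48 h comparisons of a genotype share its 0 h libraries.

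From 24 h to 48 h no member was called. After adjustment limma called 0.516% of all genes in KO and 0.122% in WT cells. In KO cells 3 members had an unadjusted p under 0.05 (CYP4V2, EPHX1 and SULT1C2), which is 8.82% of members against 9.30% of all genes. In WT cells 2 had (UGT2B4 and UGT2B11), which is 5.88% of members against 7.23% of all genes. The log2 change of SULT1C2 between these times was 1.60 ± 0.60 in KO cells (limma adjusted p = 0.317) and 0.89 ± 0.60 in WT cells (limma adjusted p = 0.805).

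The wider pathway was read from lists of regulators, cofactor enzymes and transporters. In each comparison with 0 h a list had 0 to 2 genes called, while 4.06% to 9.82% of all tested genes were called. Of 16 receptors and regulators 14 were tested. NR1I3, the receptor CAR, fell with palmitic acid: it averaged 256.2 ± 71.7 FPKM at 24 h and 199 ± 22.0 FPKM at 48 h in KO cells, against 674 ± 32.7 FPKM at 0 h, and 241 ± 60.4 and 201 ± 49.9 FPKM in WT cells, against 573 ± 47.5 FPKM at 0 h. The log2 changes at 48 h were -1.76 ± 0.19 in KO cells (limma adjusted p = 7.85e-07) and -1.54 ± 0.19 in WT cells (limma adjusted p = 9.55e-06). NR1I3 shares exonic bases with TOMM40L on the opposite strand, and which gene these reads came from was not tested. CEBPA, a liver transcription factor, fell at 48 h in WT cells (-1.19 ± 0.34, limma adjusted p = 0.033), with a change of -0.52 ± 0.34 in KO cells (adjusted p = 0.405). BACH1, a repressor of antioxidant genes, rose in KO cells to 6.46 ± 1.95 FPKM at 24 h and 6.68 ± 3.44 FPKM at 48 h, against 0.999 ± 0.743 FPKM at 0 h. Its WT changes of 0.32 ± 0.52 and 0.84 ± 0.52 were not called (limma adjusted p of 0.831 and 0.407). No other regulator was called in any comparison with 0 h.

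Of 7 electron donors of P450s 6 were tested, and PGRMC1, a haem-binding partner of P450s, rose in WT cells at 48 h to 28.3 ± 5.59 FPKM, against 14.7 ± 3.74 FPKM at 0 h (limma adjusted p = 0.048), with a change of 0.57 ± 0.28 in KO cells (adjusted p = 0.25). Of 29 other phase I enzymes 23 were tested. NQO1, a quinone reductase and known NRF2 target, rose in KO cells at 24 h and 48 h, with 8.37 ± 2.77 and 13.7 ± 3.77 FPKM, against 2.66 ± 0.716 FPKM at 0 h. In WT cells NQO1 averaged 21.3 ± 7.27 FPKM at 24 h and 22.4 ± 9.80 FPKM at 48 h, against 12.9 ± 5.08 FPKM at 0 h, and was not called (limma adjusted p of 0.419 and 0.367). At 0 h NQO1 was lower in KO than in WT cells, by a called amount (log2 difference of -2.05 ± 0.40, limma adjusted p = 0.0371). CES1, the liver carboxylesterase, averaged 4.63 ± 4.92 FPKM at 24 h and 5.18 ± 3.63 FPKM at 48 h in KO cells and was called at both times, against a group listed at 0 at 0 h, so no fold is given. In WT cells CES1 averaged 8.62 ± 4.87 FPKM at 24 h and 11.02 ± 6.28 FPKM at 48 h, against 2.904 ± 2.27 FPKM at 0 h, changes of 1.49 ± 0.75 and 1.81 ± 0.75 that were not called (limma adjusted p of 0.338 and 0.172). AKR7A2, an aldehyde reductase, was listed at 0 in all 12 KO libraries and averaged 5.83 ± 3.73 FPKM in WT cells at 0 h, and it was called lower in KO than in WT cells at 0 h. AKR7A2 also fell in WT cells, to 0.511 ± 1.02 FPKM at 24 h and to 0 in every library at 48 h, calls that were the 2 falls among these enzymes in the comparisons with 0 h. All calls of AKR7A2, and its mean above the floor of 0.5 FPKM, rest on the same WT libraries at 0 h. They are therefore not separate results.

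Of 25 other phase II and cofactor genes 18 were tested. At 48 h 2 were called in each genotype, both higher, where 3.4% of all tested genes in KO and 2.57% in WT cells were called higher. At 24 h 1 was called higher in each genotype. Among the 9213 genes free of opposite-strand exon overlap, most calls at 48 h were also rises (262 higher and 117 lower in KO, 160 and 60 in WT cells). GCLC is the catalytic subunit of glutamate-cysteine ligase, the rate-limiting enzyme of glutathione synthesis. In KO cells it averaged 63.1 ± 10.9 FPKM at 24 h and 47.3 ± 11.7 FPKM at 48 h, against 9.79 ± 8.18 FPKM at 0 h, and was called at both times. In WT cells GCLC averaged 69.9 ± 22.3 FPKM at 24 h, which was called, and 42.2 ± 11.6 FPKM at 48 h, which was not, against 19.6 ± 10.6 FPKM at 0 h. MGST1, a microsomal glutathione transferase outside the soluble families, rose at 48 h in KO cells (0.82 ± 0.19, limma adjusted p = 0.00501) and in WT cells (1.12 ± 0.19, limma adjusted p = 0.000418). PAPSS2, which makes the sulfate donor PAPS used by SULTs, rose in WT cells at 48 h (1.29 ± 0.35, limma adjusted p = 0.0234) and in KO cells had a change of 0.75 ± 0.35 (limma adjusted p = 0.205). Of 22 transporters 15 were tested, and ABCB1, the multidrug exporter, rose in KO cells at 24 h and 48 h (2.67 ± 0.76 and 2.76 ± 0.76), and ABCC2, which exports glucuronides and glutathione conjugates, rose in KO cells at 48 h (1.21 ± 0.37, limma adjusted p = 0.0353). In WT cells the log2 differences were -0.12 ± 0.76 and -0.83 ± 0.76 for ABCB1 at these times and 1.18 ± 0.37 for ABCC2 at 48 h, none of them called (limma adjusted p of 1, 0.619 and 0.0535). Of 18 P450s outside families 1 to 4, which act on sterols, bile acids and steroids, 7 were tested. CYP51A1, the lanosterol demethylase of cholesterol synthesis, rose in all 4 comparisons with 0 h, to 306 ± 8.14 FPKM in KO and 325 ± 17.1 FPKM in WT cells at 48 h, against 107 ± 21.1 and 132 ± 23.4 FPKM at 0 h. NQO1, GCLC, PAPSS2, CEBPA, BACH1 and CYP51A1 also overlap exons on the opposite strand. No gene of these lists was called in the interaction, so a call in a single genotype is not shown to differ from the other.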

How the data were processed

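RNA libraries of Huh7 cells were made with a directional mRNA kit, per the labels' protocols. FPKM values were computed by the authors and deposited as 1 table of 24 columns. STAR, Cufflinks, Cuffdiff and GRCh38 appear in the submitters' processing notes, but neither versions nor how strand was handled. The treatment protocol describes a harvest on day 1 only, so the 24 h and 48 h times come from titles and the design text. No scaling between libraries is stated and none was added. Symbols came from GENCODE 29 (99.0% of IDs matched).

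Values were tested as log2(FPKM + 0.5) for the 17252 genes averaging at least 0.5 FPKM, in 1 fit of 6 group means with an intensity trend in limma 3.58.1 (R 4.3.3), with 18 residual degrees of freedom. Adjusted p-values are Benjamini-Hochberg over all genes tested, in each of 11 comparisons. The fit was tested on simulated data. Fragments per library were estimated from steps of the low FPKM values. Tables and plots used Python 3.11.15, pandas 2.3.3 and matplotlib 3.10.9. Promoters are RefSeq sequences.

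The members and gene lists were chosen with earlier results of these data known. Members named are those called in at least 1 comparison the 3 with the highest mean of each family, and any at 0 in a whole group while another averages at least 5 FPKM (there was none). Pathway genes named are called ones, at most 6 a list. Others are named with a remark. Alternatives changed the pseudocount (0.1 or 1), the floor (none or 2 FPKM) and the scaling (median of ratios or quantiles), or used a replicate block, only genes free of opposite-strand exon overlap, and each library left out. A fit without variance trend and one of only the groups compared were chosen after seeing the data.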

Additional observations from a re-analysis of the deposited data

Results flagged for a closer look

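Among 90 sets of 4 libraries (15 named members in 6 groups), 12 had 1 library past Dixon's 95% critical value. The ratio is the gap to the nearest of the others divided by the range of the group. For continuous normal values about 1 in 20 sets, or 4.5, would pass. These values move in fragment steps and include many at 0, and a set with 1 library above 0 always passes. The 12 therefore cannot be read against 4.5. SULT1C2 measured 12.025 FPKM in WT 0 h library 2, against 0.806 to 1.46 FPKM in the other 3. SULT1C4 measured 6.18 FPKM in WT 24 h library 0, with the others at 2.80 to 3.38 FPKM. SULT1A1 measured 8.21 FPKM in WT 48 h library 1, with the others at 1.97 to 2.39 FPKM. GSTO1 measured 7.02 FPKM in WT 24 h library 3, with the others at 16.7 to 18.1 FPKM. GSTP1 measured 60.8 FPKM in WT 0 h library 3, with the others at 69.4 to 70.1 FPKM. EPHX4 measured 3.02 FPKM in WT 24 h library 0, with the others at 1.31 to 1.43 FPKM. EPHX2 measured 12.4 FPKM in KO 0 h library 0, with the others at 0. CYP1A1 was at 0 in KO 0 h library 2, where the others held 2.58 to 2.88 FPKM, and at 0 in KO 24 h library 0, where the others held 3.21 to 3.42 FPKM. UGT2B7 measured 0.893 FPKM in KO 48 h library 3, with the others at 0, and was at 0 in WT 24 h library 3 and in WT 48 h library 0, where the others held 0.890 to 1.04 FPKM. At 0.707 to 1.25 FPKM per fragment on 2 kb, the UGT2B7 sets differ by about 1 fragment.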

How the results depend on the processing

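In the comparisons in which UGT2B4, SULT1C2 and SULT1C4 were called, their direction held under every alternative run. Fitting only the groups compared left 0 members called in WT cells at 48 h and 0 in KO cells at 24 h. In KO cells at 48 h, 2 members were called with no filter, 2 without the variance trend and 3 after median-of-ratios rescaling (CYP4F3 and UGT2B4 beside SULT1C4). With each library left out in turn, the number called ran from 0 to 1 in WT cells at 24 h, 2 to 3 in WT cells at 48 h, 0 to 1 in KO cells at 24 h and 1 to 2 in KO cells at 48 h. It stayed at 0 in the other 7 comparisons under all alternatives run. The SULT1C2 change in KO cells at 24 h ran from -0.4884 without KO 0 h library 3 to 0.0803 without KO 0 h library 1. SULT1C4 in WT cells at 48 h was called with a pseudocount of 1 (limma adjusted p = 0.0422), a floor of 2 FPKM (0.0377), median-of-ratios rescaling (0.0398), the replicate block (0.04), and without WT 0 h library 3 (0.0184) or WT 48 h library 3 (0.0383). Median-of-ratios rescaling moved the median of all genes at 48 h by 0.11 in KO and 0.09 in WT cells, and the split of higher and lower calls over all genes at 48 h to 813 and 849 in KO and 590 and 585 in WT cells, against 587 and 1108 in KO and 443 and 728 in WT cells without rescaling. Quantile normalization gave 747 and 677 in KO and 544 and 390 in WT cells, and the 9213 genes free of opposite-strand exon overlap gave 262 and 117 in KO and 160 and 60 in WT cells. To look for pairing, each library was expressed as its deviation from the mean of its group, gene by gene on the log2 scale. These deviations correlated at -0.13 to 0.14 between same-numbered libraries of different groups over 3341 genes. The numbers were therefore not taken to pair samples. With the replicate block 3 members were called in WT cells at 48 h, 1 in KO cells at 24 h and 1 at 48 h. The causes were not tested. Depth limits the low members most, since many values are 1 to 3 fragments.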
